A study of Mus musculus with 47 samples.

Results

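The La protein, encoded by Ssb, and the La-related proteins form a family of RNA-binding proteins in mice, and 7 of its genes were examined here in SLAM-seq libraries of P19 cells: Larp1, Larp1b, Larp4, Larp4b, Larp6, Larp7 and Ssb. The members were the RefSeq mRNAs in the files that were paired with these genes, 13 transcripts of the 28190 mRNA transcripts there. For Larp1b this is a short transcript only. As transcripts that end in the same 3′ UTR share its reads, the 13 transcripts stand for 7 distinct 3′ UTRs, 1 for each gene.

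Proteins of this family share the La module, a La motif paired with an RNA recognition motif, and differ in the RNA that they bind. La itself holds the uridine-rich 3′ ends of new RNA polymerase III transcripts and protects them, and LARP7 does so for 7SK RNA, in the particle that keeps the elongation factor P-TEFb inactive. LARP1, a target of mTORC1, binds the cap and the first bases of mRNAs with a terminal oligopyrimidine (TOP) motif, which encode ribosomal proteins and translation factors. LARP1B is its closest relative. LARP4 and LARP4B bind adenosine-rich RNA and the cytoplasmic poly(A)-binding protein and are known for keeping mRNAs stable, and LARP6 binds a stem-loop in collagen mRNAs.

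P19 is a mouse embryonal carcinoma line, wild type by its label, that turns into neurons when given retinoic acid in NDiff 227 medium. SLAM-seq marks new RNA with 4-thiouridine (4sU), whose alkylated form is read as C in place of T (a T>C conversion). The dose of 4sU was 20 µM before differentiation (D0) and 500 µM after 6 days of it (D6). In the anabolic assay RNA was collected 0, 3, 6 and 9 h after 4sU was added, and in the catabolic assay 0, 3, 6 and 9 h after 15 h of labeling had been ended with a medium that held UTP, in 3 replicate libraries a condition, or 2 at D6 after 6 h of chase. These hours are from the study's methods; by the labels of the samples they were 0, 1, 3 and 9 h. In libraries with 4sU, the effects of its dose and of the state cannot be told apart.

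The 47 libraries held 1489528 to 11677046 reads in 3′ UTRs (median 5750402), and those of D6 were shallower. The correlation of a library with the others of its state had a median of 0.911 at D0 and 0.756 at D6. It was lowest at D6 in replicate 14 of 6 h of chase (0.58) and at D0 in replicate 56 without 4sU (0.812) and replicate 26 of 0 h of chase (0.84). Markers followed the labels in the libraries without 4sU. All 8 neuronal genes rose in D6 and 5 of 6 tested embryonal carcinoma genes (Pou5f1, Lin28a, Dnmt3b, Tdgf1 and Utf1) fell. Nanog and Sox2 were not among those that fell, and Zfp42 was at 0 throughout. Over all tested transcripts, 7.88% rose and 5.36% fell by the same test. The summed level of 4 glial genes was 0 to 2.81 CPM (reads scaled to the total of the library) at D0 and 0 to 52.7 at D6, with Aldh1l1 at 0 in both. The summed level of 6 genes of fibroblasts or smooth muscle was 79.7 to 170 CPM at D0 and 0.185 to 33.6 at D6, with Lum at 0 in both, and Acta2 and Tagln fell among the 4 tested. Their part in the differences below was not tested. The libraries are from whole cultures, in which fewer cells of a type and less RNA per cell cannot be told apart.

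The library protocol reads the end of the mRNA, so the 3′ UTR that each member uses sets what was counted. The 3′ UTR of Larp1 (NM_028451.1) lies at chr11:58058766-58062034 on the plus strand of mm10 and is 3269 bases long. That of Larp1b (NM_001040399.1), at chr3:40977228-40977793 on the plus strand, belongs to a short transcript that ends inside the gene. Larp4, with 5 transcripts, has its 3′ UTR at chr15:100012175-100016358 on the plus strand, and Larp4b, with 2 transcripts, at chr13:9170943-9174451 on the plus strand. Larp6 (NM_026235.4) ends at chr9:60738058-60738801 on the plus strand. The shortest 3′ UTR was that of Larp7 (NM_138593.2), 240 bases at chr3:127536714-127536953 on the minus strand. Ssb, with 2 transcripts, has its 3′ UTR at chr2:69871211-69871846 on the plus strand, where the 3′ UTR of Mettl5 overlaps it on the other strand. Mettl5 had a median of 5.38 CPM at D0 and 0 at D6, against 338 and 277 for Ssb.

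The last 30 bases of each 3′ UTR are shown because oligo(dT) priming starts there. They are from the GENCODE vM21 transcript that ends at the same base in GRCm38 (mm10), 5′ to 3′ on the strand of the gene, and capitals mark a polyadenylation hexamer, AATAAA or ATTAAA:
Larp1: gtataaaAATAAAaacttgaaaaggcaaaa
Larp1b: ataaataagggcatttttcctttatgcttc
Larp4: attagaaaaaAATAAAattattgaaaaaca
Larp4b: ttttaaATTAAAattttcttgaagaatgca
Larp6: ttgcaagaAATAAAagtttctaggccccag
Larp7: atttcataAATAAAtgtgttttgaacataa
Ssb: atATTAAAtactgatatgcataacatctga
Larp1, Larp4, Larp6 and Larp7 carry AATAAA, beginning 20 to 23 bases before the end, and Larp4b and Ssb carry ATTAAA, beginning 24 and 28 bases before it. The Larp1b end holds neither. Of 10404 3′ UTR ends with such a transcript, 56.5% hold AATAAA in this window, 15.1% hold ATTAAA and 69.7% hold either.

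The members spanned a wide range of levels. Compared per kilobase of 3′ UTR, the order of the medians at D0 was Larp7 (682 CPM per kb), Ssb (532), Larp1 (356), Larp4b (116), Larp4 (36.02) and Larp1b (12.6). At D6 it was Ssb (435 CPM per kb), Larp7 (231), Larp1 (146), Larp4b (95.9), Larp4 (21.6) and Larp1b (0.375). Ranges of neighbours overlapped, with 381 to 996 for Larp7 and 163 to 638 for Ssb at D0. As reads of this protocol gather at the end of the mRNA, a long 3′ UTR lowers a level per kilobase, and without that division the order differs. The medians in CPM at D0 were 1165 for Larp1, 407 for Larp4b, 338 for Ssb, 164 for Larp7 and 151 for Larp4, so that Larp7 came after Larp1, Larp4b and Ssb.

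Larp6, whose protein binds collagen mRNAs, had 0 reads in all 24 libraries of D0 and all 23 of D6, as had 19% of the 28190 mRNA transcripts. A count of 3 reads, the limit that 0 reads allow, corresponds to 0.0176 CPM over the pooled 170680432 reads of D0 and to 0.0313 CPM over the 95832375 reads of D6. In single libraries it corresponds to 0.257 to 0.87 CPM at D0 and 0.378 to 2.01 CPM at D6. Among its known partners and targets, Vim had a mean of 779 CPM at D0 and 1399.7 CPM at D6 without 4sU, and Col3a1 was at 0 in those libraries. Limits of this kind cover counting error only, since reads carry no molecular identifiers.

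The short transcript of Larp1b was near the limit of detection. At D0 it had 1332 reads in all, 0 to 15.2 CPM with a median of 7.12, and at D6 443 reads, 0 to 31.6 CPM with a median of 0.212. It had no read in 2 of 24 libraries of D0 and in 8 of 23 of D6. Of Larp1b only the end of the short transcript was used here, and longer ones were not analysed here.

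**Figure D1:**
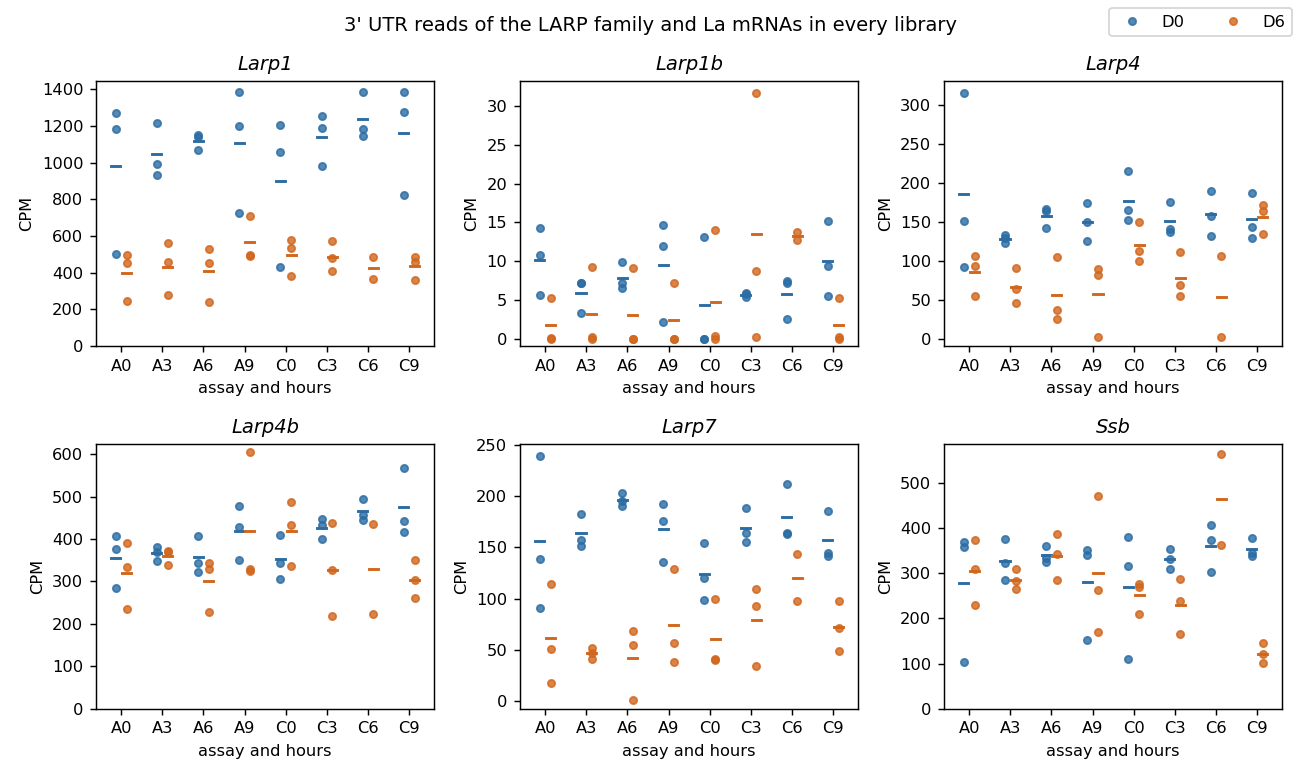
Reads of each member in every library, in CPM, by assay (A anabolic, C catabolic) and hours; points are libraries, bars are means of 2 or 3 libraries, D0 is blue and D6 orange. The D6 libraries of Larp1 lie below those of D0 at 7 of 8 time points, while those of Larp4b and Ssb overlap at 6 of 8.

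The first comparison asked which members changed with differentiation in cells that had received no 4sU. Larp1 had 1269, 499 and 1183 CPM in the D0 libraries and 454, 247 and 494 CPM in the D6 libraries. Every D6 value lay below every D0 value, although the highest of D6 and the lowest of D0 nearly met. Larp1 mRNA was 2.41-fold lower in D6 (log2 difference -1.27, SE 0.345, adjusted p = 0.0346 by the quasi-likelihood test of edgeR with Benjamini-Hochberg adjustment, n = 3 and 3). It was the only one of the 6 members tested to pass, and 13.2% of 16091 transcripts passed, 5.36% as lower and 7.88% as higher. The adjusted p was 0.000553 to 0.0452 under other settings, and 0.00353 (log2 -1.54) without D0 replicate 56. Leaving out any of the other 5 libraries ended the call, with adjusted p from 0.0661 (D6 replicate 39) to 0.129 (D6 replicate 38) and a log2 difference of -1.05 to -1.45.

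Larp7, which stabilises 7SK RNA, had 239, 91.5 and 138 CPM in D0 and 18.4, 51.1 and 115 CPM in D6. The ranges overlapped through 1 library of each state, and the difference did not pass (log2 -1.31, SE 0.595, adjusted p = 0.199). With 1 library left out it was -0.86 to -2.11 and did not pass either. Larp4 had 92.3, 315 and 152 CPM in D0 and 106, 93.3 and 55.5 CPM in D6. Its log2 difference of -1.19 (adjusted p = 0.165) was -0.43 (adjusted p = 0.591) without D0 replicate 56, the highest library. For Larp4b the values were 408, 284 and 377 CPM in D0 and 390.0, 235 and 333 CPM in D6. Here both ranges were nearly the same, with a log2 difference of -0.15 and a 95% interval of -0.66 to 0.37 (adjusted p = 0.798). Ssb had 358, 104 and 370.0 CPM in D0 and 309, 229 and 374 CPM in D6. Apart from D0 replicate 56, its libraries lay between 229 and 374 CPM, and the log2 difference was 0.18 (interval -0.60 to 0.96, adjusted p = 0.843), or -0.17 without that library. Larp1b, at 5.57, 10.7 and 14.3 CPM in D0 and 5.26, 0 and 0.143 CPM in D6, did not pass either (adjusted p = 0.529).

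The same comparison was then made at each of the 8 time points in a fit over all 16 groups. Of the members, Larp1 was lower in D6 at all 8 and passed at all 8 (edgeR, log2 -0.97 to -1.41, adjusted p = 0.000223 to 0.0137). Of 20699 transcripts, the share that passed was 10.1%, 11%, 10.4% and 12% at 0, 3, 6 and 9 h of labeling, and 10.3%, 9.74%, 19.7% and 10.9% at 0, 3, 6 and 9 h of chase. The share that passed as lower was 4.08%, 5.5%, 4.44% and 6.5% in the first assay and 5.01%, 4.77%, 12.9% and 5.17% in the second. The median transcript differed by -0.845 at 6 h of chase, where Larp1 had its log2 difference of -1.41. Over all libraries Larp1 ranged from 432 to 1387 CPM at D0 (median 1165) and from 242 to 707 CPM at D6 (median 479). The only time point with overlap was 0 h of chase, where the libraries of D0 had 1059, 432 and 1203 CPM and those of D6 383, 535 and 578 CPM. Of 20934 transcripts, those with all D6 libraries below all D0 libraries made up 13.7%, 20%, 24.9% and 20.2% at 0, 3, 6 and 9 h of labeling and 12.8%, 21.5%, 35.4% and 22.4% at the same hours of chase. The call at 0 h of chase strengthened without D0 replicate 26 (log2 -1.28, adjusted p = 0.00113). It was lost there with library sizes in place of the TMM normalization (log2 -0.85, adjusted p = 0.0639), or without D0 replicate 25 (0.0723), D0 replicate 27 (0.143) or D6 replicate 7 (0.102). At 9 h of labeling it was lost without D0 replicate 71 (0.0811) or D6 replicate 54 (0.0577). Without D6 replicate 14, the Larp1 difference at 6 h of chase was -1.32 (adjusted p = 0.0318), a value from 1 D6 library that is assumed to vary like those of the other groups.

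Larp7 was lower in D6 at all 8 time points and passed at 2. After 6 h of labeling it had 195, 189.9 and 203 CPM in D0 and 55.4, 68.8 and 1.67 CPM in D6, and the last of these libraries held 7 reads of it. The D0 libraries were alike and all D6 libraries were below them (log2 -2.24, SE 0.603, edgeR adjusted p = 0.00757), but without that library, replicate 45, the adjusted p was 0.0519 (log2 -1.68). After 3 h of labeling it had 151, 157 and 183 CPM in D0 and 47.3, 51.8 and 41.8 CPM in D6. Both groups were tight there and did not meet (log2 -1.81, adjusted p = 0.036), and leaving out any of the 6 libraries gave an adjusted p of 0.0639 to 0.117 with a log2 difference of -1.73 to -1.88. Over the other 6 time points the log2 difference was -0.41 to -1.34, none of which passed, and the value of -0.41, at 6 h of chase, was -0.86 without D6 replicate 14. The groups did not overlap at 6 of the 8 time points.

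Larp4, which guards poly(A) tails, also had all D6 libraries below all D0 libraries at 6 of 8 time points, yet passed the test at none (log2 -1.52 to 0.13, adjusted p = 0.133 to 0.964). At D0 it lay between 92.3 and 315 CPM, and at D6 between 2.01 and 172 CPM. Single D6 libraries were far below the others, 2.66 CPM in replicate 53 against 89.3 and 82.1 CPM after 9 h of labeling, and 2.01 CPM in replicate 14 against 105.8 CPM after 6 h of chase. After 9 h of chase D6 had 135, 172 and 165 CPM and D0 143, 129.6 and 187 CPM, with no difference in either direction that passed (log2 0.13, interval -1.08 to 1.34). Leaving out D6 replicate 43 made the difference after 6 h of labeling pass (adjusted p = 0.0474). So did leaving out replicate 15 after 6 h of chase (5.99e-05), which leaves only replicate 14 for D6, whereas without replicate 14 the difference there was -0.57 (adjusted p = 0.654) in place of -1.52.

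Ssb, the mRNA of La, passed the test at 1 time point. After 9 h of chase its libraries had 337, 377 and 345 CPM in D0 and 145, 121 and 101 CPM in D6. These groups stood well apart (log2 -1.43, SE 0.367, edgeR adjusted p = 0.0046), and leaving out each library gave an adjusted p of 0.0103 to 0.0359. At the other 7 time points the log2 difference was -0.54 to 0.53 and none passed. At 3 h of chase, where it was -0.54 (adjusted p = 0.41), all D6 libraries (166 to 287 CPM) also lay below all of D0 (310 to 354 CPM). The value of 0.53, at 6 h of chase, was 0.03 without D6 replicate 14, and that of -0.20 at 0 h of chase was -0.55 without D0 replicate 26. The level of Ssb in D6 thus spread from 101 to 563 CPM over the time points, and in D0 from 104 to 406 CPM. Its lowest D0 values were the 104 CPM of replicate 56, the 109 CPM of replicate 26 and the 151 CPM of replicate 72, which also held the 3 lowest levels of Larp1 (499, 432 and 727 CPM).

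The log2 difference of Larp4b, the paralog of Larp4, was -0.54 to 0.10 (median -0.17, against -0.06 for Ssb) and passed at none of the 8 time points (adjusted p = 0.206 to 1). The widest gap was after 9 h of chase, with 442, 566 and 416 CPM in D0 and 349, 260.3 and 302 CPM in D6, which did not overlap (interval -1.07 to -0.02). At 6 h of chase its difference of -0.39 was -0.07 without D6 replicate 14. For Larp1b, whose reads at 0 h of chase in D0 were all in replicate 26, no time point passed, with fitted differences of -2.57 to 1.34 that had SE values of 2.03 to 2.24. After 6 h of chase its D6 libraries (12.8 and 13.7 CPM) lay above those of D0 (2.55, 7.13 and 7.49 CPM), as did 9.94% of transcripts.

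**Figure D2:**
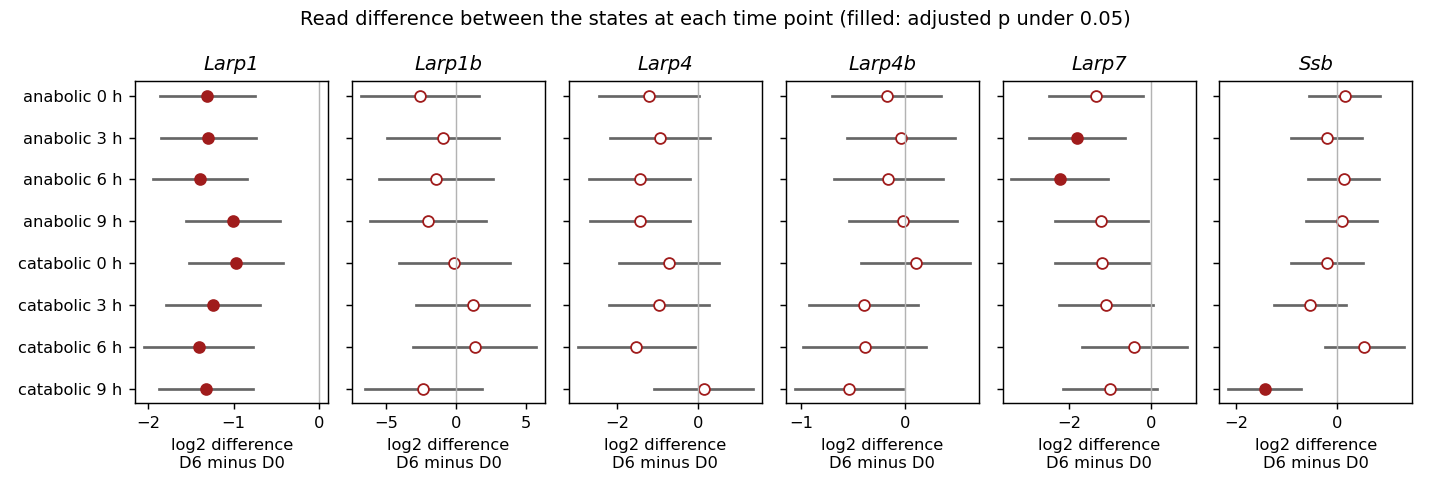
Log2 difference in reads (D6 minus D0, x axis) of each member at each assay and time point (y axis) in the fit over all groups, with 95% intervals; filled points have an adjusted p under 0.05. Larp1 is filled at all 8 time points, Larp7 at 2, Ssb at 1 and Larp1b, Larp4 and Larp4b at none.

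Whether labeling itself moved the mRNAs was asked by comparing libraries after 15 h of 4sU with those without it. No member passed in either state with edgeR or DESeq2, and no member reached an unadjusted p under 0.05. The log2 differences at D0 were -0.28 for Larp7 to 0.01 for Larp4b among the 5 better covered members, and at D6 -0.33 for Ssb to 0.43 for Larp4. Over all transcripts, edgeR called 0 of 15494 at D0 (319 with an unadjusted p under 0.05, 3 called by DESeq2) and 8 of 15615 at D6, or 0.0512% (264 called by DESeq2). Without D0 replicate 56 the value of Larp4 at D0 was 0.63 in place of -0.09, and without D0 replicate 26 that of Larp1 was 0.19 in place of -0.11. For Larp7 the value at D0 was 0.12 without D0 replicate 55, and that at D6 was 0.70 in place of -0.09 without D6 replicate 39. The widest interval among these 5 members was that of Larp7 at D6, -1.27 to 1.09.

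Genes that work with the members were described from lists, through the transcript with most reads and in the libraries without 4sU. Genes named from them that did not pass were chosen after their values were seen. Of the 7SK particle and P-TEFb, the partners of LARP7, none of the 5 tested genes passed, with a median log2 difference of 0.09. At 6 h of chase in the fit over all groups 1 of the 5 was lower, and none passed at the other time points. Hexim1, the P-TEFb inhibitor of this particle, had 55.7 CPM at D0 and 23.6 CPM at D6 (log2 -1.23, adjusted p = 0.307). Of the poly(A)-binding proteins and their interactors, 1 of 6 tested genes rose and none fell in this comparison. In the fit over all groups, the same libraries gave 1 higher and 2 lower of 7, and 1 to 3 of 7 were lower at each of the 8 time points. The higher gene was Paip2, which passed at 0 and 3 h of labeling, and none was higher at the other 6. Rack1, a ribosomal scaffold, was lower at all 8 in that fit. The gene that rose without 4sU was Paip1, which binds the poly(A)-binding protein and promotes translation, at 62.1 ± 24.8 CPM in D0 and 180.1 ± 53.96 CPM in D6 (SD, n = 3; log2 1.56, adjusted p = 0.0241). In the fit over all groups it passed at none of the 8 time points (log2 0.13 to 1.63, adjusted p = 0.128 to 0.97). Pabpc1, the main poly(A)-binding protein of the cytoplasm, had 196 and 97.2 CPM and did not pass (adjusted p = 0.272). The median of this list was -0.59 where that of all transcripts was -0.0314.

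Among 6 genes of mTORC1, the kinase complex upstream of LARP1, 1 fell, and the median log2 difference was -0.09. Deptor, an inhibitor of the complex, was at 37.4 ± 8.64 CPM in D0 and 0.0925 ± 0.16 CPM in D6 (adjusted p = 0.00428). In the fit over all groups it passed at 4 of the 8 time points, 0 and 3 h of labeling and 6 and 9 h of chase, and no gene of the list passed at the other 4. At 6 h of chase, with replicate 14 among the 2 D6 libraries, 4 of the 6 were lower. Mtor, the kinase, had 45.7 and 48.8 CPM and did not pass without 4sU (adjusted p = 0.927). Of 13 tested genes for RNA polymerase III and the La-associated Ro60 protein, 1 fell, Polr1c, a subunit shared with polymerase I, from 218 ± 41.6 to 83.6 ± 9.48 CPM (SD, n = 3; log2 -1.41, adjusted p = 0.0174). The fit over all groups gave 4 of 14 lower at 6 h of chase, 3 at 9 h of chase and 0 or 1 at each other time point, with none higher. Ro60 had 233 and 235 CPM (log2 0.00, adjusted p = 0.996). None of the 4 tested genes among collagens and LARP6 partners passed in this comparison, whereas in the fit over all groups the same libraries gave 1 higher (Vim) and 1 lower (Col1a2) of 5. Of these Col1a2 had 20.7 and 0.704 CPM (adjusted p = 0.082) while Vim had the values given above (adjusted p = 0.09). These calls are by edgeR over all transcripts, where 13.2% passed without 4sU and, in the fit over all groups, the shares given above for each time point.

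The genes whose levels followed each member most closely were chosen by the Pearson correlation of log2(CPM + 1) over all 47 libraries. As the states form separate clusters, r is given within each, over 24 libraries of D0 and 23 of D6. Larp1 went with Eif5a, a translation factor (0.914 at D0, 0.564 at D6), and with Nr0b1, a nuclear receptor of pluripotent cells (0.880 and 0.208). Larp4 went with Klhdc4 (0.486 and 0.906) and Glo1 (0.576 and 0.880), and Larp4b with Poglut2 (0.601 and 0.818) and Lta4h (0.581 and 0.698). For Larp7 they were Pgrmc2 (-0.103 and 0.796) and Metap1 (0.253 and 0.840), so that its likeness to both within D0 was weak or absent. For Ssb they were Eef1a1, the elongation factor (0.960 and 0.672), and Psma2, a proteasome subunit (0.882 and 0.863). Larp1b, with its few reads, went with Pus10 (0.448 and 0.565) and Sox6 (0.467 and 0.578). Libraries share depth and composition, and these values are descriptions.

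Conversion was next followed in the members, as the share of covered T positions read as C. Without 4sU the mean rate at D0 was 0.0304% for Larp1, 0.00733% for Larp4, 0.0371% for Larp4b and 0.0364% for Larp7, against a median of 0.0225% of all transcripts. Ssb stood higher, with 0.118%, 1.03% and 0.154% in the D0 libraries and 0.0900%, 0.361% and 0.1998% in those of D6. The value of 1.03% was from replicate 56 and rested on 139 conversions in 13514 T positions. After 15 h of 4sU the D0 rates were 1.51 ± 0.522% for Larp1, 0.944% for Larp4, 1.30% for Larp4b, 1.84% for Larp7 and 1.48% for Ssb (n = 3), where the median transcript had 1.30%. At D6, with the higher dose, they were 4.70% for Larp1, 4.61% for Larp4, 4.92% for Larp4b and 4.48% for Ssb, near the median of 4.26%. Larp7 was the exception, with 8.07%, 8.43% and 6.79% in the D6 libraries, above 96.7% of transcripts.

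**Figure D3:**
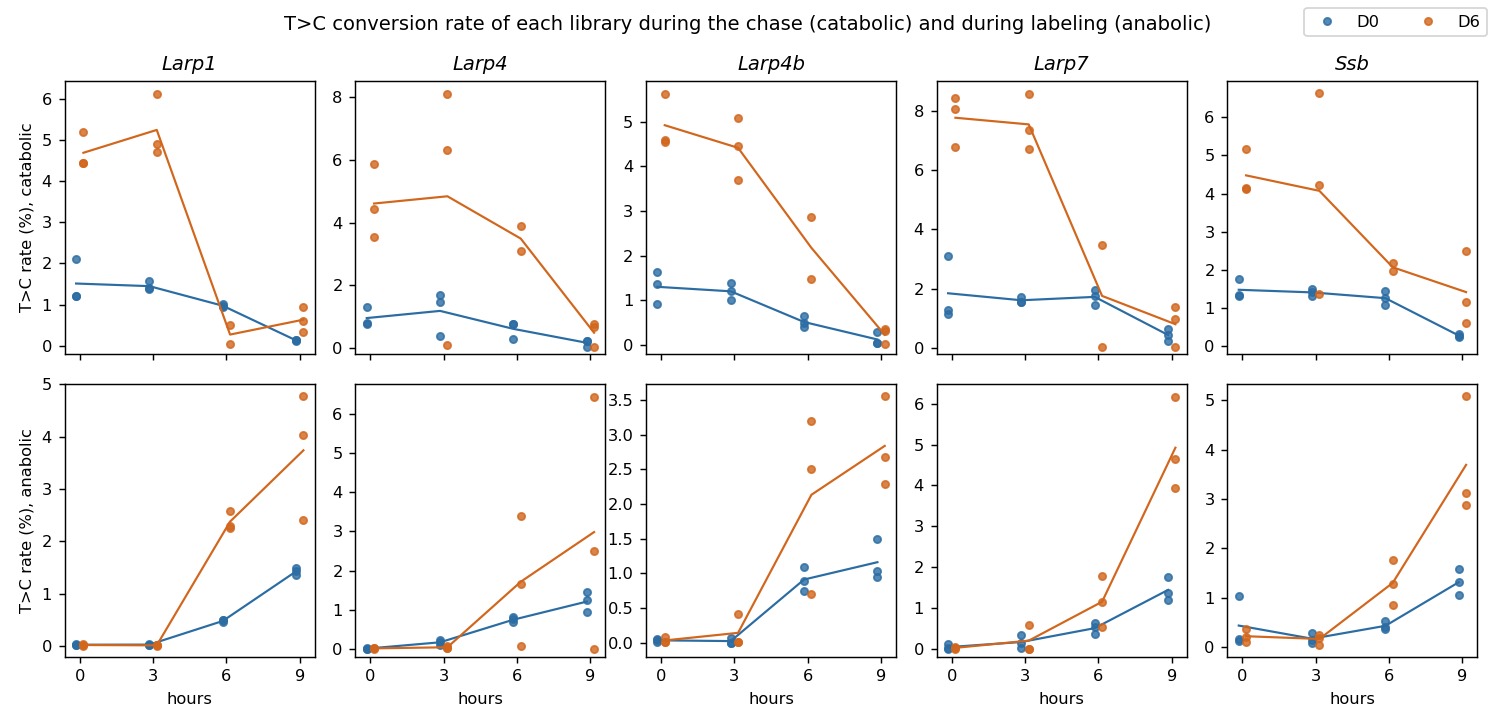
T>C conversion rate (%) of the 5 better covered members against hours during the chase (top) and during labeling (bottom); points are libraries, lines join the means, D0 is blue and D6 orange. Rates change little in the first 3 h in most panels, and the libraries of D6 spread more widely, as in Larp4 after 3 h of chase.

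During the chase at D0, Larp1 lost most of its label after the time point at 6 h, which is 3 h by the labels of the samples. Its rates were 2.11%, 1.22% and 1.205% at 0 h, 1.40%, 1.37% and 1.57% at 3 h, 1.02%, 0.962% and 0.935% at 6 h and 0.135%, 0.114% and 0.131% at 9 h. Replicates agree closely from 3 h on, and each step after 3 h was larger than their spread. The slope of its log2 rate was -0.175 per hour relative to the whole library (SE 0.0368, 95% interval -0.247 to -0.103, edgeR adjusted p = 0.0026), so that Larp1 lost label faster than the pooled 3′ UTRs. It was the only one of 6 members to pass, where 7.58% of 14426 transcripts passed, 4.46% as faster and 3.12% as slower. The slope of the median transcript was -0.0811, and that of Larp1 was at the percentile 31.2, so that the gap to the median transcript was smaller than that to the pooled reads. With background subtracted and limma, the adjusted p was 0.0737 (slope -0.16).

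Larp4b had a slope near that of Larp1, with more spread between replicates, and the difference between these members was not tested. At D0 it had 1.35%, 1.63% and 0.913% at 0 h, 1.01%, 1.205% and 1.39% at 3 h, 0.498%, 0.647% and 0.392% at 6 h and 0.0323%, 0.297% and 0.0328% at 9 h. Of the libraries at 9 h, replicate 35 (0.297%) stood far above the other two and just under the lowest at 6 h. The relative slope of -0.188 per hour (interval -0.307 to -0.069) did not pass by edgeR (adjusted p = 0.0526). It passed with DESeq2 (0.0221), with the hours of the labels (0.0246), without replicate 35 (-0.31, 0.0022) and without replicate 27 (-0.21, 0.0442). Relative slopes at D0 were -0.10 for Larp4, -0.05 for Ssb and -0.01 for Larp7 (interval -0.096 to 0.081), none of which passed, and that of Larp7 was 0.04 without replicate 26. Under other settings the slope of Ssb was -0.05 to -0.19 and did not pass.

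At D6 no member passed, with adjusted p from 0.412 for Larp4b to 1 for Larp1b and no unadjusted p under 0.05, and 0.506% of all transcripts did. The relative slopes were -0.20 for Larp4b, -0.12 for Larp7, -0.10 for Larp1, -0.08 for Larp4 and 0.08 for Ssb, which was at the percentile 81.2. Leaving out 1 library gave 0.004 to 0.105 for Ssb, -0.098 to -0.009 for Larp4 and -0.176 to -0.066 for Larp7. Libraries of D6 differed widely, as in Larp4 after 3 h of chase with 8.12%, 0.0682% and 6.33%, or Larp7 after 6 h with 0.0212% and 3.48%. Larp1 had 0.0322% and 0.505% after 6 h, both under 2 of the 3 libraries at 9 h (0.342%, 0.946% and 0.607%).

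**Figure D4:**
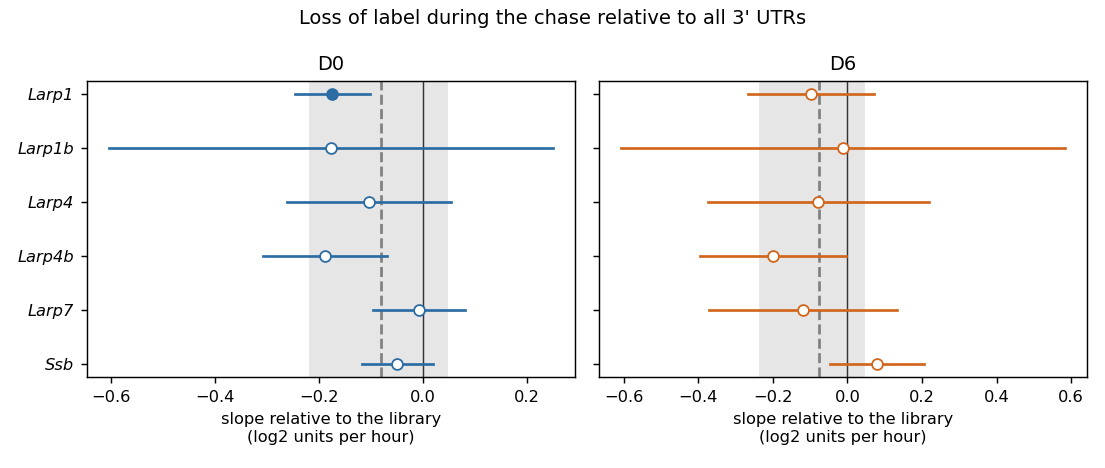
Slope of the log2 conversion rate during the chase relative to the whole library (log2 units per hour, x axis) for each member (y axis), with 95% intervals; the band spans the quartiles of all transcripts, the dashed line is their median and filled points have an adjusted p under 0.05. Larp1 at D0, at -0.175, is the filled point, and the intervals at D6 are wider.

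The change of the decay slope between the states was tested directly. No member passed, with edgeR or DESeq2, with or without scaling to the library, and none had an unadjusted p under 0.05. The largest change was that of Larp7, -0.22 per hour (interval -0.53 to 0.08, adjusted p = 0.902), and relative to the library that of Larp1b, 0.17 (interval -0.60 to 0.93), followed by Ssb, 0.13 (interval -0.02 to 0.28, adjusted p = 0.746). For Larp1 the relative change was 0.08 (interval -0.11 to 0.26). With 1 library left out, the relative change was -0.67 to 0.59 for Larp1b, 0.05 to 0.15 for Ssb and 0.02 to 0.11 for Larp1. Without scaling, the change of Larp1 was -0.05, and it was 0.07 with the hours of the labels. Over all transcripts, 0.0139% and 0.0208% passed by edgeR.

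The share of the 15 h rate that remained after 9 h of chase at D0 was 8.40 ± 0.733% for Larp1 and 9.29 ± 11.7% for Larp4b (SD, n = 3). It was 16.2 ± 12.6% for Larp4, 18.9 ± 2.85% for Ssb and 23.6 ± 10.4% for Larp7, and 16.5% for the median transcript. After 6 h the share was 39.4 ± 9.86% for Larp4b, 64.2 ± 2.69% for Larp1, 85.1 ± 12.6% for Ssb and 93.4 ± 14.05% for Larp7. At D6, 9 h of chase left 4.61 ± 3.81% of Larp4b, 10.3 ± 8.53% of Larp4, 10.3 ± 8.86% of Larp7, 13.4 ± 6.44% of Larp1 and 31.7 ± 21.6% of Ssb, with a median of 11.3%. Of these 5 members Larp4b was the lowest at D6 and next to Larp1 at D0, and Ssb was above the median at D6. No test was made of these shares. Shares in both states include the unlabeled rate, which for Ssb at D0 was 29.3 ± 34.9% of its 15 h rate. That share was 69.6% in replicate 56 and 7.97% in the lowest library. With it subtracted, the share of Ssb left at 9 h at D0 was -14.7 ± 4.04%. For Ssb at D6 the unlabeled rate was 4.85 ± 3.05% of the 15 h rate. With that subtracted, 28.2 ± 22.7% was left at 9 h.

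In the anabolic assay at D0, the paralogs Larp4 and Larp4b had the highest shares of the better covered members after 6 h (3 h by the labels). After 6 h at D0, Larp4 had reached 79.2 ± 6.64% and Larp4b 70.2 ± 13.2% of the 15 h rate (SD, n = 3). Larp1 had then reached 31.9 ± 1.29%, Ssb 28.96 ± 5.88% and Larp7 27.3 ± 7.46%, so that the 2 groups of members lay apart by more than their SD. The groups were formed after these values were seen and were not tested, and at D6 Larp1 had the highest share. These SD values, here and for the chase, leave out the spread of the 15 h rate itself. Single libraries of that rate at D0 were at 62.7 to 167% of its mean for Larp7 and 78.7 to 138% for Larp4. The share of Ssb was near the 29.3% of its libraries without 4sU, and with this background subtracted it was -0.50 ± 8.32%. After 9 h the shares were 128 ± 26.9% for Larp4, 94.6 ± 3.99% for Larp1, 89.4 ± 22.3% for Larp4b, 88.8 ± 17.7% for Ssb and 78.1 ± 15.98% for Larp7, around the median of 93.3%. At D6 the shares after 6 h were 50.7 ± 3.70% for Larp1, 43.4 ± 26.1% for Larp4b, 37.2 ± 35.9% for Larp4, 29.02 ± 10.2% for Ssb and 14.8 ± 8.13% for Larp7. After 9 h at D6 they were 57.7 ± 13.2% for Larp4b to 82.5 ± 27.01% for Ssb, with a median of 71.9%. The rate after 9 h of labeling over that after 15 h was tested between the states and, relative to the library, within each. No member passed by edgeR or DESeq2 and none had an unadjusted p under 0.05, and edgeR called 0 of 14426 transcripts in all 3 tests, of which 1035, 997 and 638 had an unadjusted p under 0.05. Without D0 replicate 26 the relative value of Larp7 at D0 was 0.38 in place of -0.16.

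Half-lives were fitted to these rates, and 11 of 24 curves of the 6 members had an R squared over 0.6. Over all fitted transcripts, 17.4% of decay and 25.4% of synthesis curves were kept at D0, and 22% and 14.6% at D6. The half-lives are described with the SE of the fit and without a test. For decay at D0 they were 372 ± 98.2 min for Larp1 and 291 ± 65.9 min for Larp4b, where 17.4% of the fitted transcripts were kept with a median of 285 min. The half-life of Larp1 was longer than 77.5% of those kept, while its slope was steeper than that of the pooled reads. The R squared of Larp1 was 0.614, and 4 of 12 fits that each left out 1 library fell under 0.6. At D6 Larp4b had 284 ± 64.4 min, close to its value at D0, and Larp7 275 ± 74.1 min, with a median of 240 min over all. For synthesis at D0, Larp4 had 177 ± 54.8 min, among the shortest 1.71% of transcripts kept. Larp4b had 281 ± 64.8 min, Larp1 379 ± 91.3 min and Larp7 454 ± 90.8 min, with a median of 415 min. Without D0 replicate 26 of 0 h of chase, whose rate enters the 15 h mean, that of Larp7 was 264 min. At D6 Larp1 had 374 ± 78.5 min, within the error of its value at D0 with these hours, Larp4b 514 ± 97.7 min and Larp7 664 ± 151 min, longer than 95.6% of transcripts kept. This last curve had an R squared of 0.608, and 10 of 15 fits that each left out 1 library kept it, with 595 to 851 min. With the hours of the labels the same 11 curves had shorter half-lives, 232 min for the decay of Larp1 at D0, 165 min for that of Larp4b and 96.5 min for the synthesis of Larp4. With 0 and 9 h only, the decay of Larp1 at D0 had 151 min, that of Larp4b 157 min and the synthesis of Larp1 128 ± 14.004 min, where that at D6 was 235 ± 67.98 min, so that the likeness of the states did not hold there. These values thus depend on which time points enter and on their hours. R squared was higher with the hours of the labels in 21 of 21 curves of the members.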

How the data were processed

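The authors sequenced 3′ ends of mRNA (QuantSeq) and deposited, for each library, a table of SLAMdunk 0.3.3 that lists, for every 3′ UTR interval of mm10, its reads, the T positions covered and the conversions seen. The deposited values used here are these counts, and rates and CPM were computed from them. The study's methods name a GENCODE annotation, while the intervals carry RefSeq names. Rows with names of mRNA were kept. The members and gene lists were chosen with earlier results of these data known.

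Reads were compared with edgeR 4.0.16 (TMM normalization, filterByExpr, quasi-likelihood test), and slopes of conversion with the same test on T>C conversion counts with covered T positions as offset, for transcripts whose covered T positions averaged 1000 or more over the libraries. P-values were adjusted by Benjamini-Hochberg over all transcripts tested, with a threshold of 0.05. DESeq2 1.42.0, limma 3.58.1, other filters, the hours of the labels and leaving out each library were alternatives. When a library was left out of the fit over all groups, the filter, normalization factors and dispersion of all libraries were held. In the read comparisons without 4sU and of 15 h of 4sU they were estimated anew from the remaining libraries. Half-lives were fitted by least squares (scipy 1.17.1) to rates divided by the 15 h mean, and kept where R squared was over 0.6 and the value at most 5000 min. A limit on very short fits, a curve of at least 0.001 at the first time after 0 h, was added after seeing the data. Scripts ran in R 4.3.3 and Python 3.11.15 and were tested on simulated data.

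Besides the members, the markers of cell types and Mettl5, which overlaps Ssb, genes named are the 2 most correlated with each member and, from each list, up to 2 that passed in each direction with the largest change. Of the lists, Hexim1, Pabpc1, Paip2, Rack1, Mtor, Ro60, Col1a2, Col3a1 and Vim are outside this rule and were chosen after their values were seen. Libraries held 1489528 to 11677046 reads. The series calls the replicates biological without saying how they were grown, so that p-values measure the spread between these libraries, which may be technical in part. Transcripts of a member that end in the same 3′ UTR share its reads and were counted once in the text. Shares over all transcripts count each transcript. With 1 transcript per 3′ UTR, 1357 of 11055 passed without 4sU in place of 2131 of 16091.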

Additional observations from a re-analysis of the deposited data

Results flagged for a closer look

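At 3 of 8 time points the Larp1b libraries of the states did not overlap, and the order was not the same in each. No time point of Larp1b passed by edgeR in the fit over all groups (adjusted p = 0.544 to 1). Its mean in D6 divided by that in D0 was 0.177 without 4sU and 0.179 after 9 h of chase, with all D6 libraries below those of D0. It was 2.31 after 6 h of chase, where D6 had 12.8 and 13.7 CPM and D0 had 2.55, 7.13 and 7.49 CPM. Of all transcripts, 13.7% and 22.4% had D6 below D0 in this way at the first and second of these time points, and 9.94% had D6 above at the third. The difference between these time points was not tested. The values rest on 0 to 119 reads a library.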

How the results depend on the processing

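No called difference of a member changed its direction under any setting run. Of 56 values of called results under other settings, 2 lost the call, and of 83 with 1 library left out, 17 did. Of 450 and 859 values of results that did not pass, 19 and 73 changed sign. The members that passed without 4sU numbered 1, and 0 to 1 with each library left out. Over the time points there were 11 calls, 10 with library sizes in place of TMM and 10 to 12 with each library left out. Among the calls gained, Larp7 passed without 4sU in the fit over all groups when D6 replicate 39 was left out (log2 -2.12, adjusted p = 0.0399). For the relative decay slope at D0, 1 member passed, 2 with DESeq2, 2 with the hours of the labels, 0 with limma after background subtraction and 1 to 2 with each library left out. Of 24 half-life curves 11 were kept, 14 with the hours of the labels, 17 with only 0 and 9 h, 18 with a fit to the mean of each time point, 5 with a free amplitude, where no curve of synthesis could be fitted, and 10 to 13 with each library left out. The cause of these changes was not tested.

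Over all transcripts, the 2131 calls without 4sU became 3234 with DESeq2. The 1093 calls for relative decay at D0 (450 slower, 643 faster) became 2656 with DESeq2 (645 slower, 2011 faster), 2632 with the hours of the labels (689 slower, 1943 faster) and 596 with 0 and 9 h only. At D6, 73 (68 slower, 5 faster) became 490 with DESeq2 (86 slower, 404 faster), 218 with the hours of the labels (111 slower, 107 faster), 115 with 0 and 9 h only and 39 with limma. The 8 calls for 15 h of 4sU at D6 became 264 with DESeq2, 77 with no filter and 1 with library sizes. For uptake, 0 calls became 153, 214 and 43 with DESeq2. For the decay slope between states, 2 became 130 with DESeq2 and 103 with the hours of the labels, and for the relative slope 3 became 113 and 24. R squared was higher with the hours of the labels in 21 of 21 curves of the members, and in 85.4% and 86.1% of all decay curves and 90.5% and 76.8% of all synthesis curves at D0 and D6. No paired analysis was possible because each library has a replicate number of its own. Larp1b rests on few reads, and the intervals of the slopes are wider at D6 than at D0.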
